A study of Mus musculus with 8 samples.

Results

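The 39 genes described here encode the contractile apparatus and the fuel-handling enzymes of skeletal muscle, and their transcripts were read in RNA from mouse back skin labelled as adipose cell. They were taken by gene symbol out of 34790 gene names on the array, and all 39 were found. The list holds filament proteins, calcium-handling proteins and muscle enzymes, and it was drawn up with earlier results of these data known. The study followed hair regrowth after wax plucking of female C57BL/6 mice, with 1 one-colour Agilent array for each of 8 groups. The groups were a control sampled straight after shaving and skin taken 12 h after plucking or on day 1, 2, 4, 6, 10 or 50. The labels give an age of 10 weeks for the control and for the plucked groups as far as day 4, of 11 weeks for days 6 and 10 and of 17 weeks for day 50, while their treatment protocol names mice younger than that. Per the design text, the back hair of the mice had been waxed once before to bring the follicles into step, and the collected material around the follicles held adipose and dermal tissue. The number of mice behind each sample is not given in the sources used here.

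Rodent skin carries a thin sheet of striated muscle, the panniculus carnosus, beneath the dermal fat, and this sheet moves the skin. A muscle fibre shortens when calcium released from its sarcoplasmic reticulum binds troponin on the thin filament and so lets myosin of the thick filament pull on actin. Slow and fast fibres use different genes for the same part, for example Myh7 against Myh1, Myh2 and Myh4 for the myosin heavy chain, or Tnnc1 against Tnnc2 for the calcium-binding subunit of troponin. Forming and regenerating fibres pass through embryonic and perinatal myosins, encoded by Myh3 and Myh8. The muscle that raises hairs is smooth muscle and does not use most of these genes.

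Each value below is a level, a spot's processed signal on the log2 scale relative to its array's 75th percentile, and each difference is the level on a plucked array minus the level on the shaved array. Probes bind with different strength, so a gene is compared only with itself across arrays. Single arrays stand for the groups, so no test between groups was possible. As a scale for technical error, the median SD between 10 replicate spots of a probe was 0.06 to 0.09 on the log2 scale, and the median SD between the differences of separate probes of 1 gene was 0.15 to 0.18. A count of genes at least 2-fold higher or lower is a description of these libraries, and all 7 comparisons share the same shaved array. In a bulk sample, fewer cells of a type and less RNA per cell cannot be told apart.

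The muscle genes were present throughout. All 39 members were well above background on all 8 arrays, and 33 of them stayed above the 75th percentile of the array in every sample. Set against the shaved control, 3 patterns appeared among them: a group of slow-fibre filament genes that swung widely in the first 10 days, a fast-fibre and common group that moved little until day 50, and the embryonic myosin Myh3, which was high from 12 h to day 4. The median difference over the 39 members was -0.07 at 12 h, 0.20 on day 1, 0.10 on day 2, -0.14 on day 4, -0.19 on day 6, -0.19 on day 10 and 0.95 on day 50. The same median over all genes measured was -0.05, 0.02, 0.01, -0.13, -0.09, -0.05 and -0.01 at those times. On day 50 all 39 members lay above their shaved level by the probe used, or 37 under quantile normalization, where Myh4 and Tnni2 did not. That setting gave Tnni2 the same value on all 8 arrays, so it could show no change for this gene. Another probe of Myh8 lay below its shaved level on day 50, at -0.48. The number of members with their highest level of the series on day 50 was 34, or 30 under quantile normalization.

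**Figure D1:**
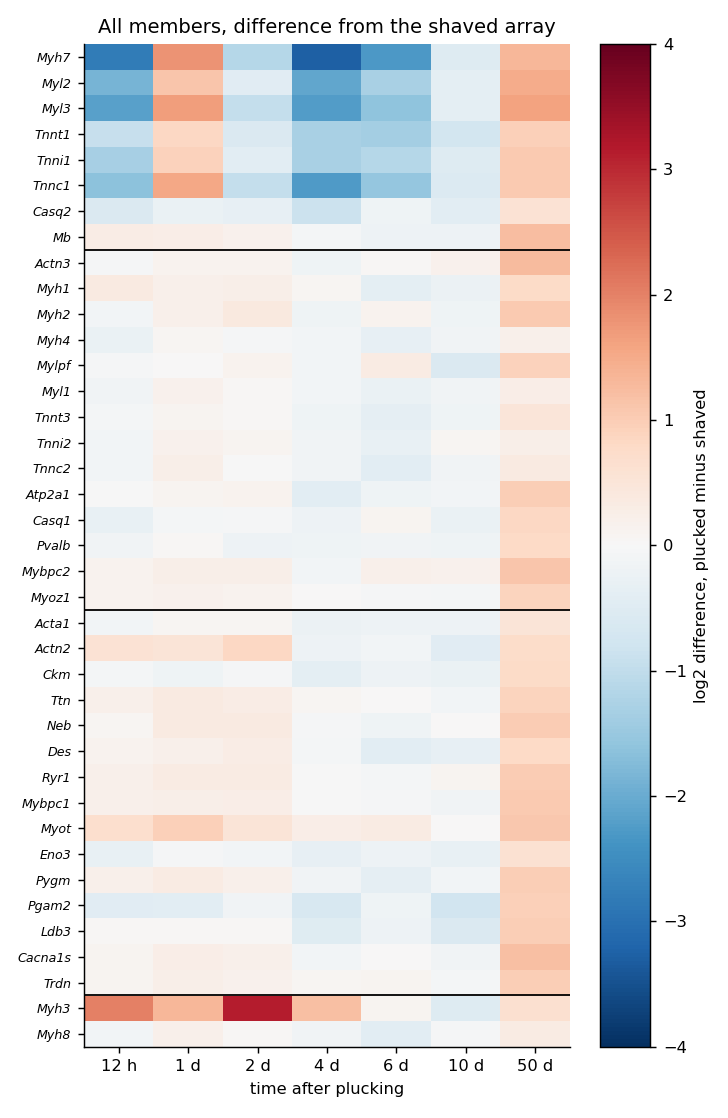
Each cell is the log2 difference of 1 member (row) at 1 time after plucking (column) from the single shaved array, with red for higher and blue for lower; black lines part the slow, fast, both-type and developmental members. The 6 slow filament genes at the top are blue at 12 h and on days 2, 4, 6 and 10 and red on days 1 and 50, while all 39 members are red on day 50 (37 under quantile normalization).

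The slow-fibre filament genes swung further than the fast-fibre members did. These are the heavy chain Myh7, the light chains Myl2 and Myl3, and the slow troponins Tnnt1, Tnni1 and Tnnc1, and they were grouped after their values had been seen. Myh7, the slow myosin motor, had levels of 2.55 when shaved, -0.25 at 12 h, 4.34 on day 1, 1.41 on day 2, -0.71 on day 4, 0.24 on day 6, 2.02 on day 10 and 3.89 on day 50. It was 33.2-fold higher on day 1 than on day 4, its extremes, and on day 4 it stood 9.61-fold lower than in the shaved skin.

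Myl3, a light chain shared by slow fibres and the heart ventricle, had levels of 1.93 on the shaved array, and -0.24, 3.61, 0.98, -0.31, 0.30, 1.53 and 3.54 at 12 h and on days 1, 2, 4, 6, 10 and 50. Myl2, the regulatory light chain of the same myosin, ran at 2.38 on the shaved array, and 0.51, 3.48, 1.93, 0.31, 1.08, 2.01 and 3.86 at 12 h and on days 1, 2, 4, 6, 10 and 50. Like Myh7, both had days 1 and 50 above the shaved array and the other 5 times below it. Myl3 spanned 15.1-fold and Myl2 11.7-fold over the 8 arrays. A second, dimmer probe of Myl2 differed from its shaved level by -0.30 at 12 h and -0.16 on day 4, against -1.87 and -2.07 for the brighter probe used here, so the depth of the trough rests on the probe. With the mean of both probes Myl2 stood 0.15 above shaved on day 10, against -0.38 for the probe used.

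The slow troponins had days 1 and 50 above and the other times below the shaved array as well. Tnnc1, the slow and cardiac calcium sensor, had levels of -1.19 when shaved, -2.84 at 12 h, 0.36 on day 1, -2.15 on day 2, -3.47 on day 4, -2.74 on day 6, -1.73 on day 10 and -0.13 on day 50. Tnni1, the slow inhibitory subunit, had -0.61 on the shaved array, and -1.94, 0.29, -1.04, -1.91, -1.77, -1.14 and 0.43 at 12 h and on days 1, 2, 4, 6, 10 and 50. Tnnt1, which ties slow troponin to tropomyosin, had 3.56 on the shaved array, and 2.65, 4.38, 3.00, 2.25, 2.20, 2.84 and 4.53 at 12 h and on days 1, 2, 4, 6, 10 and 50. The 3 genes spanned 14.2-fold, 5.18-fold and 5.03-fold, and a second probe of Tnnt1 gave differences of -1.35 on day 4 and 0.92 on day 50, next to -1.31 and 0.96 for the probe used.

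The arrays read these troponins with probes of 60 bases, 2 of which lie across an intron on the genome and so match spliced RNA. They are shown because the slow pattern rests on single probes for most of its genes. On mm9, the build given in the files, the Tnnc1 probe lies at chr14:32023360-32023776 (plus strand) and the Tnni1 probe at chr1:137705328-137706203 (plus strand); the probe of Ckm, a muscle enzyme that did not follow the slow pattern, also crosses an intron, at chr7:20002222-20004829 (plus strand). Exon numbers are left out, because the build's gene models were not used here. No capitals are used in these 3.
Tnnc1 probe: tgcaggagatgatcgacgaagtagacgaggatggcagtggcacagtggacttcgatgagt
Tnni1 probe: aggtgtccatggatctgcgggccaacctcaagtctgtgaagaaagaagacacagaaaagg
Ckm probe: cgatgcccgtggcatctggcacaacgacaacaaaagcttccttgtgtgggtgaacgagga

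As a median, the 6 slow filament genes differed from shaved by -1.76 at 12 h, 1.33 on day 1, -0.76 on day 2, -2.16 on day 4, -1.46 on day 6, -0.53 on day 10 and 1.20 on day 50. Each of the 6 lay below its shaved level at 12 h and on days 2, 4, 6 and 10, and above it on days 1 and 50, also under the other normalizations and background correction run. Across the 8 arrays each correlated with the median of the other slow filament genes at r = 0.96 to 0.99, given as a description, since the arrays share 1 slide and the genes were picked for this likeness. The values jump between neighbouring times: 12 h is low, day 1 high and day 2 low again, and each of these times is 1 array. Whether other mice at the same time would give the same level was not tested.

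The remaining slow members behaved otherwise. Casq2, the calcium store protein of slow and cardiac muscle, had levels of -1.18 when shaved, -1.75 at 12 h, -1.46 on day 1, -1.52 on day 2, -2.05 on day 4, -1.37 on day 6, -1.60 on day 10 and -0.59 on day 50, a range of 1.46 with no peak on day 1. Myoglobin, Mb, which holds oxygen in slow and oxidative fibres, had 6.10 on the shaved array, and 6.40, 6.36, 6.26, 6.00, 5.91, 5.88 and 7.34 at 12 h and on days 1, 2, 4, 6, 10 and 50. Mb kept close to its shaved level until day 10 and was 2.36-fold higher on day 50. Their correlations with the slow filament median were 0.74 for Casq2 and 0.60 for Mb.

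**Figure D2:**
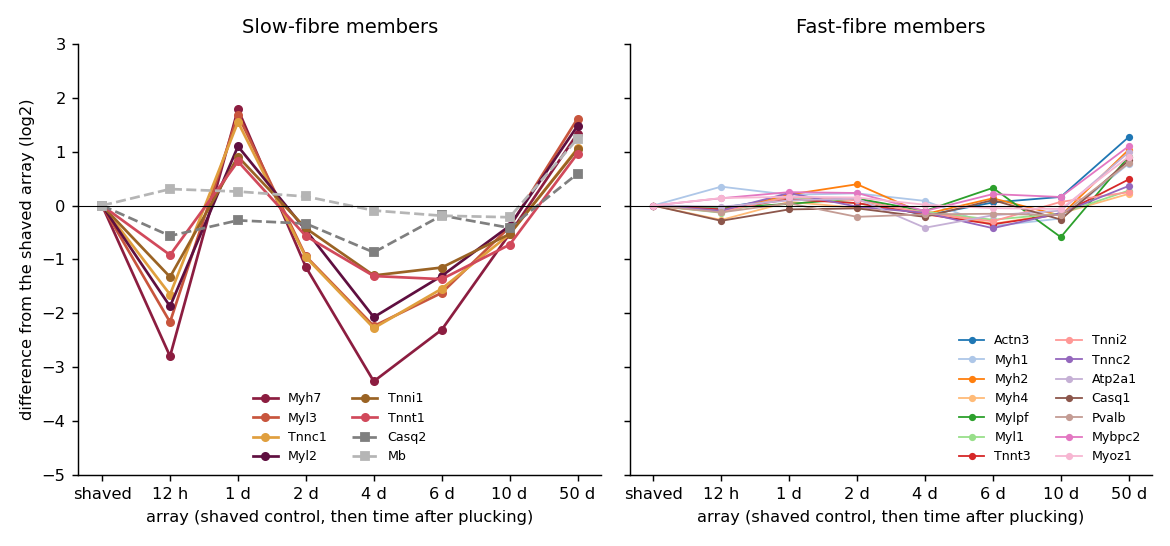
Log2 difference of each slow-fibre member (left) and fast-fibre member (right) from its level on the shaved array, over the shaved array and the 7 times after plucking, 1 array each; dashed grey lines are Casq2 and Mb. The slow filament genes fall to -3.26 (Myh7, day 4) and reach 1.79 (Myh7, day 1), while the fast genes stay between -0.59 and 0.40 up to day 10 and are all above 0 on day 50, where Myh4 and Tnni2 are not under quantile normalization.

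The fast-fibre members changed little in the first 10 days. Their median difference was -0.08 at 12 h, 0.16 on day 1, 0.11 on day 2, -0.14 on day 4, -0.17 on day 6 and -0.15 on day 10, and 0.81 on day 50. Among the fast myosin heavy chains, Myh1 (type 2X) had levels of 7.62 on the shaved array, and 7.97, 7.82, 7.85, 7.71, 7.24, 7.38 and 8.40 at 12 h and on days 1, 2, 4, 6, 10 and 50. Myh2 (type 2A) had 6.69 on the shaved array, and 6.57, 6.89, 7.08, 6.53, 6.82, 6.50 and 7.72 at 12 h and on days 1, 2, 4, 6, 10 and 50. Myh4 (type 2B) had 8.76 on the shaved array, and 8.49, 8.83, 8.72, 8.66, 8.42, 8.61 and 8.98 at 12 h and on days 1, 2, 4, 6, 10 and 50. Myh1 and Myh2 were 1.71-fold and 2.05-fold higher on day 50 than in shaved skin. Myh4 differed by 0.22 on the log2 scale, and by -0.11 under quantile normalization.

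By the probes used, the fast light chains differed from each other on day 50. Mylpf, the fast regulatory light chain, had levels of 1.90 when shaved, 1.86 at 12 h, 1.93 on day 1, 2.03 on day 2, 1.80 on day 4, 2.23 on day 6, 1.32 on day 10 and 2.81 on day 50, and Myl1, the fast essential light chain, had 8.57 when shaved, 8.44 at 12 h, 8.74 on day 1, 8.61 on day 2, 8.46 on day 4, 8.31 on day 6, 8.42 on day 10 and 8.85 on day 50. Mylpf was 1.88-fold higher on day 50 and Myl1 1.21-fold. A second, dimmer probe of Myl1 differed by 0.65 on the log2 scale then, against 0.28 for the probe used and 0.91 for Mylpf. The size of the gap thus rests on the probe. Mylpf also had the widest range of the fast members, at 1.5.

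The fast troponins gave small differences too. Tnnt3 had levels of 8.86 on the shaved array, and 8.79, 8.97, 8.90, 8.70, 8.51, 8.70 and 9.34 at 12 h and on days 1, 2, 4, 6, 10 and 50. Tnni2 had 9.37 on the shaved array, and 9.25, 9.53, 9.47, 9.23, 9.08, 9.44 and 9.62 at 12 h and on days 1, 2, 4, 6, 10 and 50. Tnnc2 had 9.16 on the shaved array, and 9.06, 9.39, 9.14, 9.02, 8.74, 9.02 and 9.52 at 12 h and on days 1, 2, 4, 6, 10 and 50. All 3 had their lowest level on day 6 and their highest on day 50, and none of the 3 probes spanned 2-fold over the 8 arrays. Under quantile normalization Tnni2 had the same value on all 8 arrays, so neither held for it there. A second probe of Tnnt3 ran between 8.17 on day 4 and 9.21 on day 50.

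Actn3, Mybpc2 and Myoz1, read by dimmer probes than the fast troponins, stood further above the control on day 50. This did not hold for fast thick filament genes as a class, since Myh4 differed by 0.22 and Myl1 by 0.28. Actn3, the alpha-actinin of fast fibres, had levels of 6.58 when shaved, 6.54 at 12 h, 6.73 on day 1, 6.71 on day 2, 6.39 on day 4, 6.64 on day 6, 6.74 on day 10 and 7.85 on day 50. Mybpc2, fast myosin-binding protein C, had 6.80 on the shaved array, and 6.93, 7.04, 7.03, 6.69, 7.01, 6.95 and 7.90 at 12 h and on days 1, 2, 4, 6, 10 and 50. Myoz1, a Z-disc partner of calcineurin, had 6.21 on the shaved array, and 6.35, 6.37, 6.36, 6.22, 6.16, 6.14 and 7.12 at 12 h and on days 1, 2, 4, 6, 10 and 50. On day 50 Actn3 was 2.41-fold, Mybpc2 2.14-fold and Myoz1 1.87-fold higher than in shaved skin, and the 7 earlier arrays of Myoz1 lay within 0.23 of each other.

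Fast genes that handle calcium followed the same course. Atp2a1, the fast calcium pump SERCA1, had levels of 5.51 on the shaved array, and 5.49, 5.61, 5.64, 5.10, 5.33, 5.42 and 6.50 at 12 h and on days 1, 2, 4, 6, 10 and 50. Casq1, the calcium store protein of fast fibres, had 3.51 on the shaved array, and 3.22, 3.44, 3.45, 3.30, 3.61, 3.25 and 4.34 at 12 h and on days 1, 2, 4, 6, 10 and 50. Pvalb, the calcium buffer that speeds relaxation, had 8.61 on the shaved array, and 8.48, 8.65, 8.40, 8.44, 8.45, 8.43 and 9.39 at 12 h and on days 1, 2, 4, 6, 10 and 50. Their day 50 levels were 1.98-fold, 1.79-fold and 1.73-fold their shaved levels. All 14 fast members had their highest level on day 50, or 11 under quantile normalization, where Myh4, Myl1 and Tnni2 did not. For Tnni2 that setting could show no change, since it gave the same value on all 8 arrays.

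Setting the 2 fibre types side by side through their differences, the median of the 8 slow members minus that of the 14 fast members was -1.41 at 12 h, 0.85 on day 1, -0.63 on day 2, -1.56 on day 4, -1.17 on day 6, -0.32 on day 10 and 0.34 on day 50. The 2 medians thus parted in the first 6 days, with the slow median lower at 12 h and on days 2, 4, 6 and 10, and higher on day 1. Not all slow members shared this: Mb lay above shaved at 12 h and on day 2, at 0.31 and 0.17, and Casq2 below it on day 1, at -0.28. On day 50 both medians were above the shaved control. Leaving out Casq2, Mb and Myh2, whose fibre type is less clear-cut, made the gap -1.69 at 12 h, 1.17 on day 1, -0.85 on day 2 and -2.02 on day 4.

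The 15 members that both fibre types use differed from their shaved level by -0.77 to 0.97 up to day 10, and all stood above it on day 50. The 3 with the widest ranges were Pgam2, Ldb3 and Pygm. Pgam2, the muscle phosphoglycerate mutase of glycolysis, had levels of 6.77 when shaved, 6.32 at 12 h, 6.35 on day 1, 6.62 on day 2, 6.13 on day 4, 6.61 on day 6, 6.00 on day 10 and 7.72 on day 50. Ldb3, a Z-disc protein, had 5.03 on the shaved array, and 5.08, 5.07, 5.07, 4.53, 4.83, 4.46 and 6.01 at 12 h and on days 1, 2, 4, 6, 10 and 50. Pygm, the glycogen phosphorylase of muscle, had 6.75 on the shaved array, and 6.97, 7.08, 6.95, 6.63, 6.39, 6.65 and 7.72 at 12 h and on days 1, 2, 4, 6, 10 and 50. Pgam2 and Ldb3 were lowest on day 10 and Pygm on day 6, and the 3 genes were 1.93-fold, 1.98-fold and 1.96-fold higher on day 50 than in shaved skin.

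Of the others, the calcium-release genes Ryr1, Cacna1s and Trdn, encoding the release channel, its voltage sensor and their anchor, differed by 1.02, 1.20 and 0.98 on day 50. The giant filament proteins Ttn and Neb and the intermediate filament desmin, Des, differed by 0.88, 1.03 and 0.81 then, and 4 probes of Ttn ranged from 0.88 to 1.02. The creatine kinase Ckm and the enolase Eno3 differed by 0.78 and 0.59, skeletal actin Acta1 by 0.53, and slow myosin-binding protein Mybpc1 by 1.04. Mybpc1, kept out of the slow list here, did not follow the slow filament genes. It differed from shaved by 0.20 at 12 h, 0.24 on day 1, 0.26 on day 2 and -0.01 on day 4. Actn2 and Myot, both of the Z-disc, were also above the control early: Actn2 was 0.58 above shaved at 12 h and 0.82 on day 2, and Myot 0.67 at 12 h and 0.97 on day 1, none of them reaching 2-fold. On day 50 the 2 genes differed by 0.74 and 1.06.

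Myh3, the embryonic myosin heavy chain, had its highest level on day 2. It had levels of -3.74 when shaved, -1.72 at 12 h, -2.42 on day 1, -0.62 on day 2, -2.53 on day 4, -3.65 on day 6, -4.25 on day 10 and -3.11 on day 50. The 4 arrays from 12 h to day 4 thus lay above the shaved array. Day 6, at a difference of 0.09, day 10, at -0.50, and day 50, at 0.63, did not differ from it by 2-fold. It was 8.73-fold higher on day 2. The size rests on the processing: under normexp background correction Myh3 differed by 1.19 at 12 h, 0.79 on day 1, 2.13 on day 2 and 0.58 on day 4, so that days 1 and 4 no longer passed 2-fold. With the mean of its probes day 2 stood at 3.65, and day 50, at 1.22, passed 2-fold as well. The second Myh3 probe kept the order of the probe used and gave differences of 2.94 at 12 h, 4.17 on day 2 and 1.81 on day 50, though it was not well above background on 1 of the 8 arrays. Myh8, the perinatal heavy chain, had levels of 9.20 on the shaved array, and 9.07, 9.39, 9.24, 9.06, 8.78, 9.15 and 9.52 at 12 h and on days 1, 2, 4, 6, 10 and 50 by its brightest probe. Its other probes gave other courses: on day 50 the 3 that were well above background on every array gave differences of 0.33, 1.26 and -0.48, and a 4th probe was above background on none. These myosins are close copies of each other, and how much each probe reads of its neighbours was not tested, so no course is given for Myh8.

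The probes used for Myh3 and Myh8 are shown because the levels given for these 2 genes come from them. On mm9 they lie at chr11:66915107-66915166 (plus strand) for Myh3 and chr11:67121925-67121984 (plus strand) for Myh8. Capitals mark the longest run of letters that both probes hold, of 7 bases.
Myh3 probe: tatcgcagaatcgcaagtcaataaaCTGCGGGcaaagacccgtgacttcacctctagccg
Myh8 probe: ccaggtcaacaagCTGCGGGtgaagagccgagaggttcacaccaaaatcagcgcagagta

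Other genes of forming fibres were measured beside Myh3, as a list of 7. Tnnt2, the troponin T of embryonic and cardiac muscle, had levels of -3.74 on the shaved array, and -2.13, -2.10, -1.78, -1.90, -2.34, -3.28 and -2.67 at 12 h and on days 1, 2, 4, 6, 10 and 50, higher than shaved on all 7 plucked arrays. Gm7325, now named Mymx and encoding a peptide that lets myoblasts fuse, differed from shaved by 2.48 at 12 h, 1.5 on day 1, 2.16 on day 2, 0.62 on day 4, 0.05 on day 6 and 0.22 on day 10, and was not well above background on day 50. The median of the list was 0.17 at 12 h, 0.50 on day 1, 0.24 on day 2 and 0.17 on day 4, so the list as a whole did not follow Myh3. Ncam1, an adhesion molecule of new fibres that nerve and other cells also make, was 1.41 higher on day 4. Members of the list that lay below shaved were picked out after their values were seen: cardiac actin Actc1 differed by -0.85 on day 1 and -0.81 on day 2, and Tmem8c, now named Mymk and encoding the other fusion protein of myoblasts, by -0.38 at 12 h and -0.52 on day 4.

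**Figure D3:**
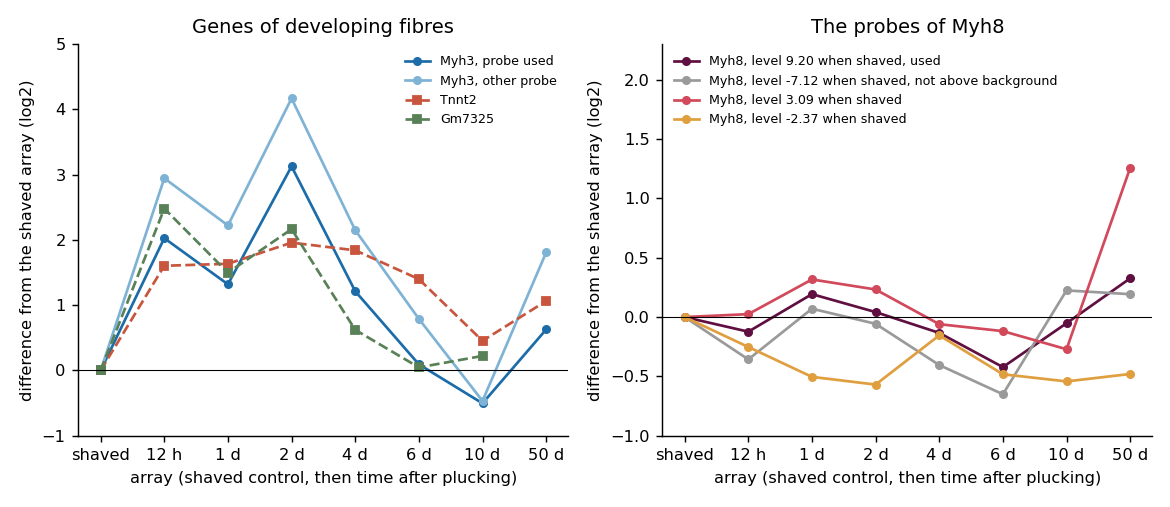
Log2 difference from the shaved array for both probes of Myh3, Tnnt2 and Gm7325 (left; Gm7325 is not drawn on day 50, where it was not well above background) and for the 4 probes of Myh8 (right), 1 array per time. The Myh3 probes peak on day 2, at 3.13 for the probe used, and the Myh8 probes part on day 50.

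Counted gene by gene, few members passed 2-fold before day 50, and each member that passed in the lower direction was a slow filament gene. At 12 h, 1 of 39 members was at least 2-fold higher than shaved, against 3.9% of all genes measured, and 5 were lower, against 3.36%; the higher one was Myh3. On day 1, 5 were higher (2.67% of all genes) and 0 lower (3.22%). On day 2, 1 was higher (2.56%) and 1 lower (3.57%), and these were Myh3 and Myh7. On day 4, 1 was higher (5.89%) and 6 lower (6.62%), and the 6 were the slow filament genes. The same 6 genes made up the 6 lower members on day 6 (2.12%), with 0 higher (4.24%). On day 10, 0 members passed in either direction, against 3.76% higher and 2.29% lower among all genes. On day 50, 14 of 39 members were at least 2-fold higher, against 2.72% of all genes, and 0 were lower, against 4.41%. That count of higher members was 7 under quantile normalization and 9 under normexp background correction.

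On day 50 the members' difference from shaved skin was broad, and it was smaller for the brightest probes. The largest differences were 1.61 for Myl3, 1.48 for Myl2, 1.34 for Myh7, 1.27 for Actn3 and 1.24 for Mb, and the smallest 0.22 for Myh4 and 0.25 for Tnni2. Apart from the slow filament genes and Myh3, the 8 members with a mean level of at least 8 had a median difference of 0.34 (0.22 to 0.79), and the 24 below that level one of 0.97 (0.59 to 1.27). The split at 8 was made after the values were seen, and across the same 32 members level and difference correlated at r = -0.37, given as a description across genes. Of the bright genes with several probes, the dimmer probe gave the larger difference for Myl1 (0.65 against 0.28), Tnnt3 (0.81 against 0.48) and Pvalb (1.00 against 0.79), while the dimmer probes of Myh8 lay on either side of the bright one. No spot was marked as saturated, and the part that signal level plays in the smaller differences was not tested. Under quantile normalization Myh4 had a difference of -0.11 on day 50. That setting gave Tnni2 a difference of 0.00 at all 7 times, so no change in Tnni2 could show there. A direction for these 2 genes is not given.

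**Figure D4:**
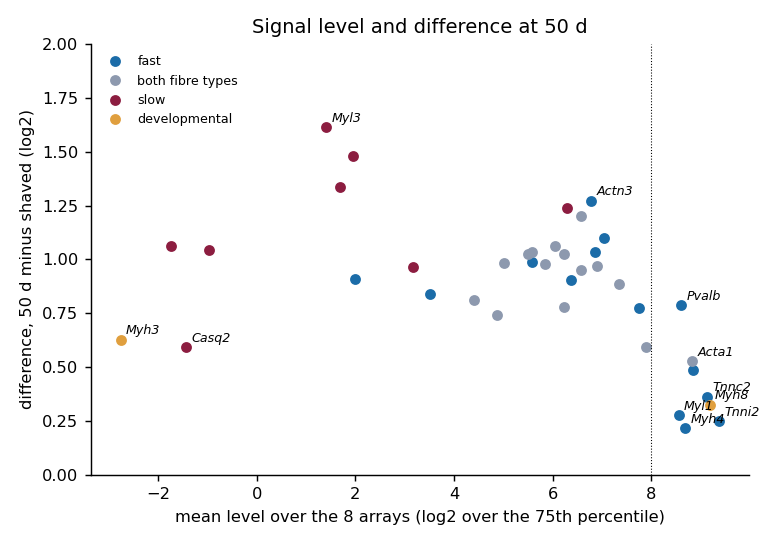
Each point is 1 member, with the mean level of its probe over the 8 arrays on the horizontal axis and its log2 difference on day 50 from the shaved array on the vertical axis; the dotted line marks a level of 8. Right of the line the differences lie between 0.22 and 0.79, left of it between 0.59 and 1.61.

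Most other muscle genes were higher along with the members on day 50. Of 59 other sarcomere and muscle metabolism genes, 19 were at least 2-fold higher and 0 lower, against 2.72% and 4.41% of all genes measured, with a median difference of 0.91. Among them Trim63 and Fbxo32, ubiquitin ligases of muscle protein breakdown, differed by 1.56 and 1.5, and the deubiquitinase Usp13 by 1.40. Genes of the neuromuscular junction had a median of 0.48, with Colq, the tail that anchors acetylcholinesterase, at 0.91 and Dok7, an organiser of the junction, at 0.86. Myogenic regulators and satellite cell genes had a median of 0.49, with Myod1 at 1.05, while Myf5 was not well above background on any array. Of the 14 measured, 11 lay above shaved and 3 below. Of the 7 genes of forming fibres, 4 lay above shaved and 3 below.

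Genes of other tissues give the setting of these values. The 22 respiratory chain genes had a median of 0.76 on day 50, all of them between 0.42 and 0.94, where their medians at the 6 earlier times lay between -0.25 and 0.16. The brown fat list had a median of 0.79 on day 50, led by the uncoupling protein Ucp1 at 8.42 and Cidea at 3.65, and muscle shares part of both lists. Adipocyte genes, the labelled cell type, were well above background on all 8 arrays for all 16 listed genes, with medians of -0.63 on day 4 and 0.23 on day 50. Smooth muscle genes had a median of 0.02 on day 50, peripheral nerve genes -0.14, endothelial genes 0.22, keratinocyte genes -0.05, fibroblast genes -0.62, macrophage genes -1.11, erythrocyte genes 1.09 and genes of the hair shaft and inner root sheath 2.18. The mice on day 50 were also the oldest, and age, time after plucking and the single sample cannot be told apart.

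**Figure D5:**
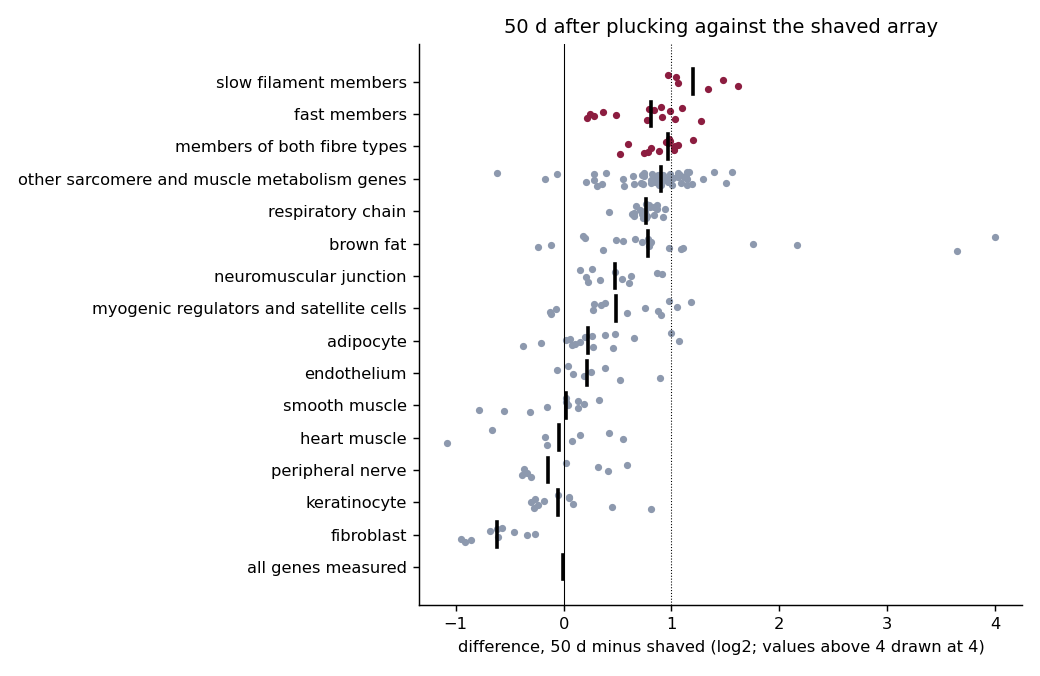
Log2 difference on day 50 from the shaved array for each gene (points, members in dark red) and the median (black bar) of the member groups and companion lists; the dotted line marks 2-fold. Member groups, other muscle genes and respiratory chain genes have medians from 0.76 to 1.20, the median of all genes is -0.01, and smooth and heart muscle lie at 0.02 and -0.04.

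Because some slow filament genes, such as Myl3 and Tnnc1, are also used by the heart, heart genes were read beside the slow filament genes. Myh6 is the atrial heavy chain and closest relative of Myh7. It differed from shaved by -0.52, 0.27, -0.47, -0.48, -0.12, 0.18 and 0.08 at 12 h and on days 1, 2, 4, 6, 10 and 50. These differences had the sign of those of Myh7 except on day 10, and were smaller, with Myh7 at -3.26 on day 4. The level of Myh6 was low, at -2.53 on the shaved array, and what this does to its differences was not tested. The heart list had medians between -0.27 and 0.11 over the 7 times, and 2 of its 10 genes, Myl7 and Ryr2, were not well above background on any array. Smooth muscle genes had medians between -0.39 and 0.17. Keratinocyte genes were high on day 1, with a median of 3.33, when the slow filament genes were high, and also at 12 h and on day 4, at 2.14 and 1.90, when the slow filament genes were low.

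The promoters of the members were searched as a description of the list. The shares found do not depend on the array values, and a link to the day 50 differences was not tested. RefSeq on GRCm38.p6 gave 39 promoter entries for 32 of the 39 members, and the 250 bases before each start were read on both strands. The E-box CANNTG, the site class bound by MyoD-type factors, was found in 33 of 39 entries (84.6%), against 66.2% of 32851 promoters of the same length. Its form CAGCTG, which is included in CANNTG, was found in 17 (43.6%), against 13.0%. The MEF2 motif was found in 7 (17.9%), against 2.92%, and TATAAA in 8 (20.5%), against 12.4%. Of the 9 entries of slow filament genes, all 9 held CANNTG, 3 held CAGCTG and 0 held the MEF2 motif. A match is a description of letters and not of a bound site.

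A slow and fast pair of troponin C promoters is shown with that of Ckm, since Tnnc1 fell on day 4 while Tnnc2 and Ckm did not pass 2-fold. On GRCm38.p6 they lie at chr14:31208062-31208311 (plus strand) for Tnnc1, chr2:164779735-164779984 (minus strand) for Tnnc2 and chr7:19410844-19411093 (plus strand) for Ckm. Capitals mark CANNTG matches.
Tnnc1 promoter: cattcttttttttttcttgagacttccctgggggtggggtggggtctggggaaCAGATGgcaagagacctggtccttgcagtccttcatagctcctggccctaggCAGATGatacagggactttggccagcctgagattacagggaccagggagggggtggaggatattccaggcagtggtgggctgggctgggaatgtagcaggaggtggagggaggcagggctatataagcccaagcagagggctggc
Tnnc2 promoter: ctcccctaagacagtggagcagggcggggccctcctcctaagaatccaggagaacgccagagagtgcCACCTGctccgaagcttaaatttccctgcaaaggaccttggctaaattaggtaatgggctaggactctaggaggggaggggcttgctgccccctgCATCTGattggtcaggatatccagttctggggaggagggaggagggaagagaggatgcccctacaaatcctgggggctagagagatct
Ckm promoter: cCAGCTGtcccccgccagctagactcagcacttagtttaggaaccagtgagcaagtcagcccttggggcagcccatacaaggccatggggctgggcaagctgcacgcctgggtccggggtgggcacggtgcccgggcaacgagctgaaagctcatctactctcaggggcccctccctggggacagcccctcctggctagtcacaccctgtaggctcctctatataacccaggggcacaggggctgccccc
The Tnnc1 and Tnnc2 windows hold 2 CANNTG matches each and none in the CAGCTG form, and the Ckm window holds 1, which is CAGCTG.

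Outside the list, the genes whose course was most like the members' median were taken from 5362 genes. These were well above background on all 8 arrays and had a range of at least 1. Gene names other than a capital letter followed by small letters or digits, with or without a hyphenated ending, had been left out. Over the 8 arrays the closest were Dusp23 (r = 0.99), Gucy1b2 (0.99), Cox8b (0.99), Slc25a4 (0.99), Hrc (0.98), Kcnj11 (0.98), Myadml2 (0.98), Cox5a (0.98), Cox7a1 (0.98) and Eef1a2 (0.98), and their differences on day 50 lay between 0.73 and 1.13. The likeness leans on the day 50 array, where all of them were highest. For the slow filament median, a comparison chosen after seeing the values, the closest gene was Myh7b (r = 0.99), a further myosin heavy chain of slow-type muscle, with levels of -1.65 when shaved, -3.14 at 12 h, -0.27 on day 1, -2.41 on day 2, -3.27 on day 4, -3.16 on day 6, -1.94 on day 10 and -0.39 on day 50. The next gene stood at r = 0.95.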

How the data were processed

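Total RNA was labelled with Cy3 and hybridised to 1 Agilent array per group, 8 in all, on 1 slide. Per the file headers, the deposited values are the intensity of each spot from Agilent Feature Extraction 10.5.1.1, background-subtracted, and probe positions are on mm9 per the submitters' processing notes and the file headers. Between 72.9% and 81.2% of spots were well above background on each array, no spot was saturated, and the day 10 array's header marks its spike-in slope, 0.891, as out of range. The number of arrays limits the precision.

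Control spots and outlier spots were left out, which removed 13 of 55681 probes, and spots of a probe were averaged. The level is the log2 processed intensity, as deposited by the authors, minus the array's 75th percentile. The brightest probe stood for a gene, and the 39 members had 59 probes, with more than 1 probe for 14 members. A gene counted as higher or lower from a 2-fold difference on, provided that the brighter of the compared arrays read it well above background. With 1 array per group no test was run. The calculation was tested on simulated data with Python 3.11.15, numpy 2.4.6 and pandas 2.3.3, and normexp correction was run in limma 3.58.1.

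Members and companion lists were chosen with earlier results of these data known. Values on all arrays are given for slow, fast and developmental members and for the 3 others of widest range, and from companion lists up to 3 genes each on days 4 and 50 are named. Outside this rule, Myl7, Ryr2, Myf5, Myf6, Actc1, Tmem8c, Ankrd2, Csrp3, Hspb7 and Xirp1 were named after their values were seen. Alternatives covered the normalization, background correction, choice of probe, summary, threshold and control array.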

Additional observations from a re-analysis of the deposited data

How the results depend on the processing

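The scaling on the median of probes above background, the use of no background filter and bounds for dim genes kept the counts of members within 1.5 times of those reported and the medians within the technical spread. Quantile normalization gave a median of 0.00 on day 6 and 0.75 on day 50, 7 members at least 2-fold higher on day 50, and a slow minus fast gap of -1.45 on day 6. Normexp background correction gave 0 higher members on day 4, where Myh3 was the call lost, and 9 on day 50, and gaps of -1.12 at 12 h and -1.28 on day 4. The mean over the probes of a gene gave gaps of -1.16 at 12 h and -1.18 on day 4. The mean over members in place of the median was 0.37 on day 1 and -0.42 on day 4. Leaving out Myh2, Mb and Casq2 gave gaps of -1.69 at 12 h, 1.17 on day 1, -0.85 on day 2 and -2.02 on day 4. A 1.5-fold threshold gave 2, 8, 2 and 32 higher members at 12 h and on days 1, 2 and 50, and 3 lower members on day 2 and 3 on day 10. With the day 50 array as the control, the medians were -0.89 at 12 h, -0.64 on day 1, where the sign turned, -0.78 on day 2, -1.05 on day 4, -0.96 on day 6 and -1.07 on day 10. Higher members then numbered 0 on day 1 and 0 on day 4, and lower members 13, 2, 10, 22, 18 and 26 at 12 h and on days 1, 2, 4, 6 and 10. The gaps in that setting were -1.70, 0.60, -1.04, -1.92, -1.61 and -0.67 at those times. That turn follows from its construction, since all members were higher on day 50 than when shaved, and the cause of the other moves was not tested. The median of all genes moved by less than 0.1 under each scaling. No paired analysis was possible because every label carries replicate 1, so the groups share fewer than 2 replicate numbers. With 1 array per group, the spread between mice is unknown and no replicate could be left out.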

Other observations

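Some muscle genes outside the 39 members were high soon after plucking. Of the 59 other sarcomere and muscle metabolism genes, 10 were at least 2-fold higher at 12 h and 9 on day 1, against 3.9% and 2.67% of all genes measured. Trim63, the ubiquitin ligase MuRF1 that marks myosin for breakdown, differed from shaved by 3.36 at 12 h, 2.88 on day 1, 1.45 on day 2, 1.75 on day 4, 0.14 on day 6, 1.44 on day 10 and 1.56 on day 50. Fbxo32, the ligase atrogin-1, differed by 2.58 at 12 h, 2.48 on day 1, 1.68 on day 2, 2.14 on day 4, 0.24 on day 6, 2.36 on day 10 and 1.5 on day 50. Both were near their shaved level only on day 6.

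The median of those 59 genes was 0.12 at 12 h and 0.23 on day 1, so the list as a whole stayed near its shaved level. A few single genes of it are given here because their values were high, and they stand for no group. Ankrd2, a stretch-responsive ankyrin repeat protein, differed by 2.48 at 12 h, 2.40 on day 1, 0.85 on day 2, -0.21 on day 4, 0.29 on day 6, -0.33 on day 10 and 1.01 on day 50. Csrp3, the muscle LIM protein of the Z-disc, differed by 1.42 at 12 h and 1.59 on day 1, the small heat shock protein Hspb7 by 1.97 and 2.07, and Xirp1, an actin-binding protein of repair sites, by 1.34 and 1.30. On day 4 these 4 genes differed by -0.21, -0.47, -0.27 and -0.41. Among 14 measured regulators of muscle formation, 1 was at least 2-fold higher at 12 h, Myf6 at 1.20, and 1 was higher and 1 lower on day 4, which is near the 3.9% of all genes higher at 12 h and the 5.89% higher and 6.62% lower on day 4. On day 4 Pax3, a regulator of muscle precursors that is also used in pigment cells, differed by 1.46, and Myog, the factor of differentiating myoblasts, by -1.28. Each of these values is a difference between single arrays.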
